A study of Mus musculus with 4 samples.

Results

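A set of 7 genes known mainly from neurons, epithelia or vessels was followed in mouse MLL-AF9 leukaemic cells treated with OHT or EtOH. The set was taken out of 16545 gene symbols in the table, and its Slc6a4 is also known from platelets and mast cells. The 7 are Mcam, Clic6, Stac2, Gal, Slc17a7, Slc32a1 and Slc6a4, and each is represented by 1 RefSeq transcript of the 18061 listed. They were picked from the same comparison that is described here, as genes that were near the floor in the EtOH cells or were called in the series, so their rise is the ground for choosing them and is given as a description without a test. By these values the name of the group needs a limit: Mcam, Clic6 and Gal started within 5 reads of 0, Stac2 had 20 reads with EtOH, and Slc17a7, Slc32a1 and Slc6a4 were already present with 35, 92 and 74 reads.

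The cells came from the bone marrow of C57BL/6 mice and grew in liquid culture. The MLL-AF9 fusion joins only a part of MLL, a histone methyltransferase when whole, to a partner protein and drives acute myeloid leukaemia. Cells of both groups were labelled Ring1a-/-;Ring1bf/f with Cdkn2a-/- and differed in the agent given for 72 h. That agent was OHT in 2 samples and EtOH in 2 samples. The authors' column for the OHT group is named as a Ring knockout, while the recombinase that OHT would act on is not given in the sources used here. Whether samples within a group are separate cultures or separate animals is not labelled. OHT-treated cells with an intact Ring1b gene are not analysed here, so OHT itself and loss of Ring1b cannot be told apart.

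Polycomb repressive complex 1 (PRC1) carries Ring1a or Ring1b as its ubiquitin ligase and marks histone H2A at genes that a cell type keeps silent. Its targets are known to include genes of other lineages, many of them with CpG-rich promoters, and PRC1 works beside PRC2, which methylates histone H3 at overlapping sites. Genes that are used in neurons or epithelia and silent in blood cells are thus of interest where PRC1 is removed.

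The authors' deposited table gives 1 mean per group. Each mean was solved for the whole reads of its 2 libraries, which are called A and B within a group; the letters are arbitrary and have no link to the labelled replicate numbers. The libraries held 5687967 and 4509718 reads with OHT and 6255320 and 3841243 reads with EtOH. Normalised reads below are solved reads divided by the library's size factor, while the authors' means also hold 1 added read per library, so that a gene without reads is listed at 0.978 with OHT and 1.07 with EtOH. Rnf2, which encodes Ring1b, had 716 and 797 normalised reads with OHT and 687 and 583 with EtOH, so its count over the whole transcript does not show the deletion, and which exons are floxed is not labelled. Ring1, which encodes Ring1a, had 177 and 84 reads with OHT and 60 and 65 with EtOH, although every library is labelled Ring1a-/-; its authors' deposited means were 122 with OHT and 68.3 with EtOH (adjusted p = 0.385). Which part of Ring1 is deleted is not labelled either, so neither count checks the genotype. Of all 18061 transcripts, the authors' deposited table called 654 higher with OHT (3.62%) and 335 lower (1.85%) at an adjusted p under 0.05, the Benjamini-Hochberg value of that table. Limma-voom on the solved reads of 11338 transcripts called 9.72% higher and 5.49% lower at the same threshold.

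Each of the 7 genes was higher in both OHT libraries than in both EtOH libraries, as were 26.4% of all transcripts (27% with 1 transcript per symbol). The smallest gap was that of Slc6a4, whose lower OHT library stood 3.54 times above its higher EtOH library, and the largest that of Clic6, at 37.7 times. All 7 were among the 654 transcripts called higher in the authors' deposited table, but a call was one of the grounds for choosing them and nothing is read from that count. In bulk RNA a change in the share of cells that express a gene and a change in RNA per cell cannot be told apart. By fold in the authors' deposited table the genes fell into 4 steep risers, Mcam (36.9-fold), Clic6 (32.0-fold), Gal (28.8-fold) and Stac2 (27.8-fold), and 3 transporter genes with smaller folds, Slc32a1 (9.77-fold), Slc6a4 (4.75-fold) and Slc17a7 (3.99-fold). Among the 654 transcripts called higher, ordered by fold in the authors' deposited table, Mcam stood at 7, Clic6 at 11, Gal at 14, Stac2 at 15, Slc32a1 at 113, Slc6a4 at 301 and Slc17a7 at 364.

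**Figure D1:**
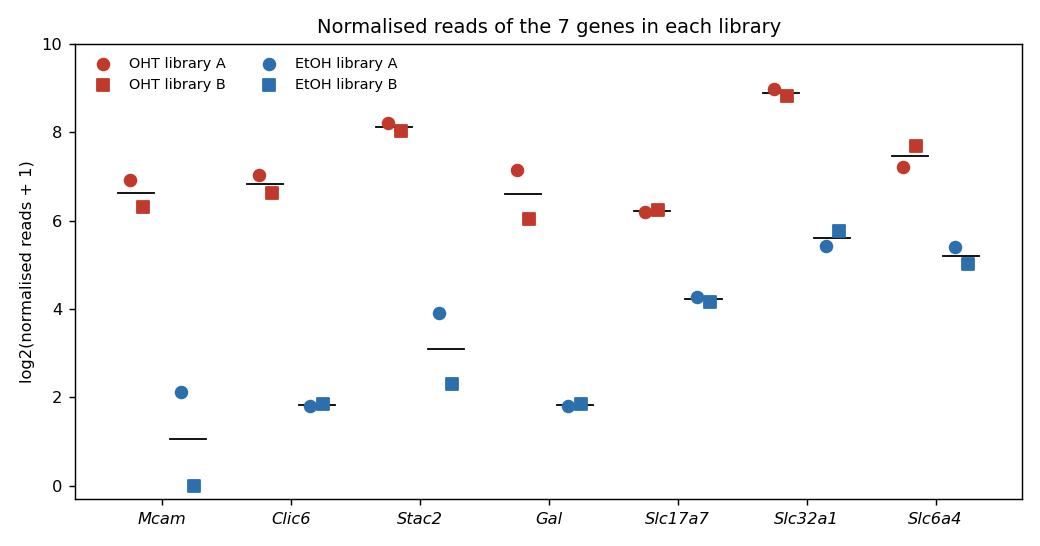
Normalised reads of each gene in the 4 libraries, as log2(normalised reads + 1); red marks OHT and blue EtOH libraries, circles stand for library A, squares for library B, and black bars for the mean of the 2 libraries on this scale. For each of the 7 genes both red points lie above both blue points, and Mcam in EtOH library B lies at 0.

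The promoters are shown for Mcam and Slc6a4, the 2 with the most CpG, and for Slc17a7, the one with the least, because CpG content was not used to choose the genes and Polycomb targets are known for CpG-rich starts. Each line gives the 250 bases before the transcription start, 5′ to 3′ on the gene's strand, from RefSeq on build GRCm38.p6; every CpG dinucleotide is in capitals. The reads were placed on mm9, per the submitters' processing notes, so these positions are not those of the authors' files.
Mcam promoter, chr9:44134408-44134657, plus strand: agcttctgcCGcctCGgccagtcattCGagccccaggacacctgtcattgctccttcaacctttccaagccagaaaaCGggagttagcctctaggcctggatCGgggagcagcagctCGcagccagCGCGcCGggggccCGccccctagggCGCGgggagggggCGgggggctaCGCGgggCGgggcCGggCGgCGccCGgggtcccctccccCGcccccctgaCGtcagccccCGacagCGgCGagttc
Slc6a4 promoter, chr11:76998347-76998596, plus strand: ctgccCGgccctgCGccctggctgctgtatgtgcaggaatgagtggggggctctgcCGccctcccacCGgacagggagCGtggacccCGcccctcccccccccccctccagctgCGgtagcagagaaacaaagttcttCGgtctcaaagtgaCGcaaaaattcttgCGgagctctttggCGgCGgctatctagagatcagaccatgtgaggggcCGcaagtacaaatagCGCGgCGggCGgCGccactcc
Slc17a7 promoter, chr7:45163671-45163920, plus strand: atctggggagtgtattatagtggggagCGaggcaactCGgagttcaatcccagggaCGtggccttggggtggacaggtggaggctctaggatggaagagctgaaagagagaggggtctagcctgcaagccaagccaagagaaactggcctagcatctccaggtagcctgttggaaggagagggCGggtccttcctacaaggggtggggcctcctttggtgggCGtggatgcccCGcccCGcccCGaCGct

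These 3 stretches hold 25, 18 and 9 CpG for Mcam, Slc6a4 and Slc17a7, where the median of all 32851 promoters of the table is 6. Promoters were found for 5 of the 7 genes: these 3, Slc32a1 with 12 CpG and Gal with 11. Over the window of 300 bases that also takes in the first 50 bases after the start, the ratio of observed to expected CpG was 0.82 for Slc6a4, 0.73 for Mcam, 0.57 for Slc32a1, 0.55 for Gal and 0.44 for Slc17a7, against a median of 0.38 over all promoters. The 5 thus lay between percentiles 54.0 and 80.4 of all promoters, above the median but not at the top.

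For comparison, symbols with 1 listed promoter, leaving out the 7 genes, had a median CpG ratio of 0.68 where the authors' deposited table called them higher (n = 391), 0.83 where it called them lower (n = 220) and 0.72 where it made no call (n = 9227). Slc32a1, Gal and Slc17a7 thus lay below each of these medians, although above that of all promoters. Among those with an EtOH mean under 50, the medians were 0.67 for the 205 called higher and 0.49 for the 4352 not called. Slc17a7 lay below both of these, Gal and Slc32a1 between them, and Mcam and Slc6a4 above both. A GC box, GGGCGG or its reverse CCGCCC, was found in the 250 bases of Mcam, Slc6a4, Slc17a7 and Gal and not in those of Slc32a1; 32.7% of all promoters hold it. Neither TATAAA (12.4% of all promoters), CCAAT (33.8%), TGTGGT (14.05%) nor CACGTG (6.02%), each searched on both strands, was in any of the 5; these are matches of letters and not bound sites.

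Mcam encodes CD146, an immunoglobulin-family adhesion molecule of endothelial cells, pericytes and smooth muscle that binds laminin. It had 144 and 70 reads in OHT libraries A and B, against 4 and 0 in EtOH libraries A and B. Normalised, that was 121 and 78.1 with OHT and 3.32 and 0 with EtOH, so all 4 EtOH reads came from 1 library. The ratio of summed reads was 50.6, with a 95% interval from 19.5 to 187 that covers counting error only. The limma-voom log2 fold change was 5.99 ± 0.83 (SE); leaving out EtOH library A, and with it every EtOH read, gave 7.26, and leaving out EtOH library B gave 4.74.

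Several other immunoglobulin-family adhesion molecules were also higher with OHT. Of 18 measured members besides Mcam, 6 rose (33.3%, against 3.94% of symbols with 1 transcript each) and 1 fell (against 2.02%) in the authors' deposited table. Bcam, the Lutheran laminin receptor, had 183 reads with OHT and 2 with EtOH, a read ratio of 86.6 (95% counting interval 23.6 to 720.2; adjusted p = 3.37e-11 in the authors' deposited table). Alcam, a ligand of CD6, had authors' deposited means of 529 with OHT and 118 with EtOH (4.46-fold, adjusted p = 5.06e-08). The junctional molecule F11r had authors' deposited means of 394 and 85.1 with OHT and EtOH (4.63-fold), and the neural adhesion molecule L1cam 596 and 187 (3.18-fold). The other risers were Cadm4 and Icam1, at 5.78-fold and 3.61-fold in the authors' deposited table. Icam2, an integrin ligand of endothelium and leukocytes, fell to an authors' deposited mean of 210 with OHT, against 418 with EtOH (adjusted p = 0.0201), and limma-voom did not call it without OHT library A (log2 fold change -0.61, adjusted p = 0.484). The median log2 fold change of the 18 was 0.39, and 1.67 over the 13 with more than 3 reads in a group, against 0.04 over all symbols.

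Ligands and partners of MCAM passed no test. None of 11 measured genes was called in the authors' deposited table, 1 was higher there at an unadjusted p under 0.05, and limma-voom called none of the 6 it fitted. Of the 13 listed, the laminin chain gene Lama4 and Wnt5a were not measured, so nothing is shown for them. Lama5, a chain of the laminins that MCAM binds, had authors' deposited means of 3894 with OHT and 4613 with EtOH, and Lamc1, a laminin chain shared by many laminins, 1420 and 540 (adjusted p = 0.286). Lamc1 had 1329 and 1509 normalised reads in the OHT libraries against 897 and 180 in the EtOH libraries, so the EtOH libraries differed more from each other than the OHT libraries did.

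Clic6 encodes a member of the chloride intracellular channel family known from secretory and water-transporting epithelia such as the choroid plexus. It had 156 and 88 reads in OHT libraries A and B, against 3 and 2 in EtOH libraries A and B. Normalised, the OHT libraries held 131 and 98.2 and the EtOH libraries 2.49 and 2.60, so the EtOH libraries were nearly equal and both OHT libraries far above them. The read ratio was 46.2 (95% counting interval 19.5 to 143) and the limma-voom log2 fold change 5.24 ± 0.64 (SE).

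The relatives of Clic6 had different levels and none passed the test. The authors' deposited table called 0 of the 4 other CLIC genes, with 1 higher and 1 lower at an unadjusted p under 0.05, and limma-voom called 0 of 4. Clic4 had authors' deposited means of 1535 with OHT and 2391 with EtOH (adjusted p = 0.177) and Clic1 1355 and 1294 (adjusted p = 1). These 2 were abundant under both treatments, whereas Clic6 was not. Clic5, named after its values were seen, had 16.8 and 24.6 normalised reads with OHT against 2.49 and 6.51 with EtOH, and an adjusted p of 0.229 by the authors' deposited table.

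Stac2 encodes an adaptor of L-type calcium channels found in neurons, a relative of the muscle adaptor Stac3. It had 353 and 234 reads in OHT libraries A and B, against 17 and 3 in EtOH libraries A and B. Normalised, the OHT libraries held 296 and 261 and lay close together, while the EtOH libraries held 14.1 and 3.91. Library A made up 85.0% of the EtOH reads of Stac2 (95% interval 62.1% to 96.8%, Clopper-Pearson), where depth alone gives 61.1%. The read ratio was 27.8 (95% counting interval 17.8 to 45.8) and the limma-voom log2 fold change 5.001 ± 0.55 (SE); leaving out EtOH library A gave 5.94 and leaving out EtOH library B gave 4.27.

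The channels and coupling proteins around Stac2 did not pass the test. Of 16 measured genes of the STAC family, voltage-gated calcium channels and excitation-contraction coupling, 0 were called in the authors' deposited table, with 1 lower at an unadjusted p under 0.05, and limma-voom called 0 of the 5 it fitted. Ryr1, the calcium release channel of skeletal muscle, had authors' deposited means of 219 with OHT and 387 with EtOH (adjusted p = 0.139), and Cacna1f, an L-type channel of the retina, 148 and 113 (adjusted p = 1). Stac3 had authors' deposited means of 22.7 and 22.6 with OHT and EtOH, and Stac had 1 read in all. Cacna1b, Cacna1d, Cacna1e, Cacna1i and Cacnb3 had no EtOH read, and 6 of the 16 genes had at most 3 reads in each group.

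Gal encodes the precursor of galanin, a neuropeptide of hypothalamic, brainstem and sensory neurons that is cut out of its precursor in secretory granules. It had 168 and 58 reads in OHT libraries A and B, against 3 and 2 in EtOH libraries A and B. Normalised, the OHT libraries held 141 and 64.8, further apart than for the other 6 genes, and the EtOH libraries 2.49 and 2.60. Library A made up 74.3% of the OHT reads (95% interval 68.1% to 79.9%), where depth alone gives 57.1%, so the gap between the OHT libraries exceeded counting error. Of 7906 transcripts with at least 150 OHT reads, 1.71% had OHT libraries as far apart. The read ratio of OHT to EtOH was 42.8 (95% counting interval 18.1 to 133), and the limma-voom log2 fold change was 5.02 ± 0.79 (SE); leaving out OHT library A gave 4.42 and leaving out OHT library B gave 5.54.

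Galanin receptors passed no test and had values on both sides of 0. Galr3 had 26.3 with OHT and 51.4 with EtOH in the authors' deposited means (adjusted p = 0.414), and Galr2 15.0 and 6.28 (adjusted p = 0.857). In the authors' deposited table both had an unadjusted p above 0.05, and limma-voom called neither.

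Of 14 other measured neuropeptide and hormone precursors, the authors' deposited table called 1 higher and 0 lower, that is 7.14% against 3.94% of symbols. Adm, the vasodilator adrenomedullin, had 75 reads with OHT and 2 with EtOH, a read ratio of 35.5 (95% counting interval 9.49 to 298) (adjusted p = 0.000402 in the table the authors deposited). For the list the median log2 fold change was 0.46 with 5 members at 3 reads or fewer in each group, and over the other 9 it was 1.14 with the 1 member that had no EtOH read set to its lower bound, computed against 3 reads over the group.

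Genes that process and store peptides had log2 fold changes above 0 in 16 of 17 cases, where 51.6% of all symbols did, but 2 rose in the authors' deposited table (11.8% against 3.94% of symbols) and none fell. Of the 17, 5 had at most 3 reads in each group, so that their sign rests on few reads. Ptprn, a dense-core granule protein, had authors' deposited means of 169.6 with OHT and 23.9 with EtOH (7.09-fold, adjusted p = 1.97e-07). Cpd, a carboxypeptidase of the Golgi, had authors' deposited means of 2583 and 1355 with OHT and EtOH (1.91-fold, adjusted p = 0.0357), and limma-voom did not call it without OHT library A (adjusted p = 0.104) or without EtOH library B (adjusted p = 0.103). The convertase gene Pcsk1 had 4 reads with OHT and 1 with EtOH, and Pcsk2 had no EtOH read.

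Slc32a1 encodes the vesicular inhibitory amino acid transporter, which loads GABA and glycine into synaptic vesicles. It had 598 and 404 reads in OHT libraries A and B, against 51 and 41 in EtOH libraries A and B, the deepest count of the 7 genes in both groups. Normalised, the OHT libraries held 502 and 451 and the EtOH libraries 42.3 and 53.4, so the spread within each group was small beside the gap. The read ratio was 10.3 (95% counting interval 8.32 to 12.9) and the limma-voom log2 fold change 3.33 ± 0.31 (SE), between 3.14 and 3.48 when each library was left out.

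Slc17a7 encodes the vesicular glutamate transporter VGLUT1 of excitatory neurons. It had 86 and 67 reads in OHT libraries A and B, against 22 and 13 in EtOH libraries A and B. Normalised, these were 72.2 and 74.8 with OHT and 18.2 and 16.9 with EtOH, the closest pair of OHT libraries among the 7 genes. The read ratio was 4.14 (95% counting interval 2.85 to 6.15) and the limma-voom log2 fold change 2.02 ± 0.42 (SE), between 1.99 and 2.07 when each library was left out.

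Slc6a4 encodes the serotonin transporter SERT, which clears serotonin into serotonergic neurons and is also known from platelets and mast cells. It had 175 and 185 reads in OHT libraries A and B, against 50 and 24 in EtOH libraries A and B. Normalised, the OHT libraries held 147 and 207 and the EtOH libraries 41.5 and 31.2. It was the gene with the clearest lean to OHT library B, which held 1.41 times the level of library A, while Gal stood at 0.46 times. The read ratio was 4.60 (95% counting interval 3.58 to 5.99) and the limma-voom log2 fold change 2.21 ± 0.37 (SE).

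**Figure D2:**
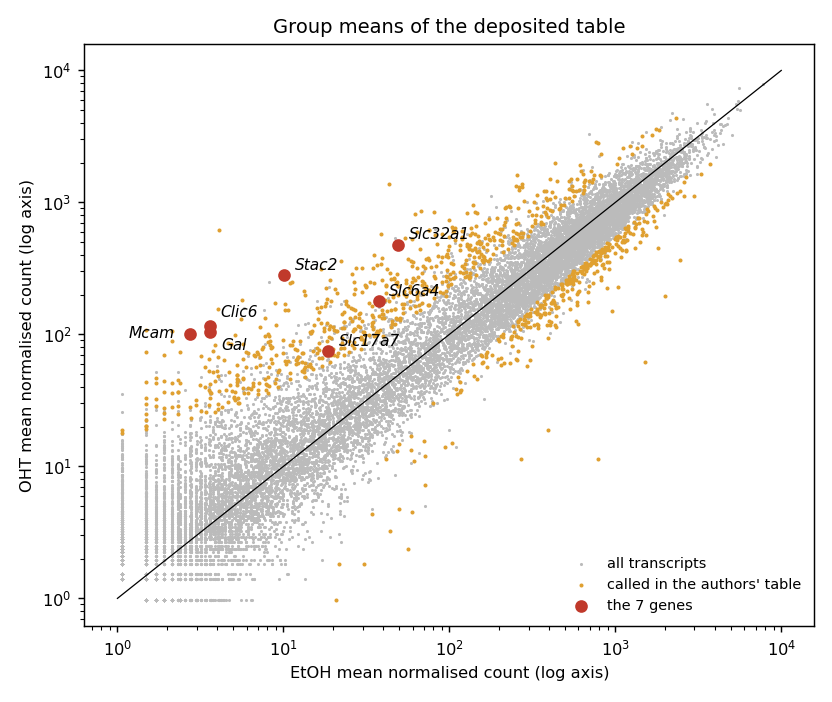
Mean normalised count of every transcript in the authors' deposited table with EtOH (horizontal, log axis) and with OHT (vertical, log axis); the line marks equal means, orange marks calls and red marks the 7 genes. Mcam, Clic6, Gal and Stac2 lie at the upper edge of transcripts with their EtOH level, and Slc17a7 lies among many called transcripts.

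Other vesicular transporters passed no test. Of 8 measured genes, 7 of the Slc17 and Slc18 families and the related vesicle protein gene Slc10a4, 0 were called in the authors' deposited table, with 1 lower at an unadjusted p under 0.05, and limma-voom called 0 of the 5 it fitted. The nucleotide transporter Slc17a9 had authors' deposited means of 282 with OHT and 443 with EtOH (adjusted p = 0.207), and the vesicular monoamine transporter Slc18a2 109 and 49.3 (adjusted p = 0.886). Slc17a8, which like Slc17a7 loads glutamate, had 13 reads with OHT and 10 with EtOH.

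Plasma membrane transporters of the Slc6 family other than Slc6a4 included 1 riser among 11 measured (9.09% against 3.94% of symbols) and none that fell in the authors' deposited table. The riser was Slc6a6, which carries taurine, with authors' deposited means of 3251 with OHT and 1672 with EtOH (1.94-fold, adjusted p = 0.0364); limma-voom did not call it without EtOH library B (adjusted p = 0.113). The dopamine transporter gene Slc6a3 had 6 reads with OHT and 0 with EtOH, and the noradrenaline transporter gene Slc6a2 had 2 with OHT and 6 with EtOH; both were named after their values were seen.

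Enzymes that make and break down the transmitters passed no test. Of 14 measured genes, 0 were called in the authors' deposited table, where 3 were higher and 1 lower at an unadjusted p under 0.05; limma-voom called 0 higher and 1 lower of the 9 it fitted. Glud1, of glutamate breakdown, had authors' deposited means of 1832 with OHT and 2056 with EtOH, and Hdc, which makes histamine in myeloid and mast cells, 1809 and 1141 (adjusted p = 0.833). The GABA-making enzymes Gad1 and Gad2, partners of Slc32a1 in neurons and named after their values were seen, had 59 and 16 reads with OHT and 18 and 7 with EtOH (adjusted p = 0.631 and 1 in the authors' deposited table). Tph2, the neuronal enzyme of serotonin synthesis, and Fev, a transcription factor of serotonergic neurons, each had 1 read in all.

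Receptors for the same transmitters passed no test in the authors' deposited table. Of 5 measured serotonin receptors 0 were called in the authors' deposited table, each had an unadjusted p above 0.05 there, and 3 had at most 3 reads in each group. Htr2a had 89.0 and 26.8 normalised reads with OHT against 9.12 and 3.91 with EtOH (adjusted p = 0.399 in the authors' deposited table), and limma-voom called it higher (2.91 ± 0.80 SE, adjusted p = 0.0363), though not without OHT library A (adjusted p = 0.166) or EtOH library B (adjusted p = 0.0700). Htr7 had authors' deposited means of 34.1 with OHT and 9.36 with EtOH (adjusted p = 0.889). Of 16 measured subunits of GABA and glutamate receptors 0 were called, 7 stood at 3 reads or fewer under both treatments, and 1 was higher at an unadjusted p under 0.05, by the authors' deposited table; limma-voom called 0 of the 4 it fitted. Gabbr1, of the GABA-B receptor, was the most abundant, with authors' deposited means of 1336 with OHT and 957 with EtOH (adjusted p = 0.470), and Grik5, a kainate receptor subunit, had 139 and 160 (adjusted p = 1).

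**Figure D3:**
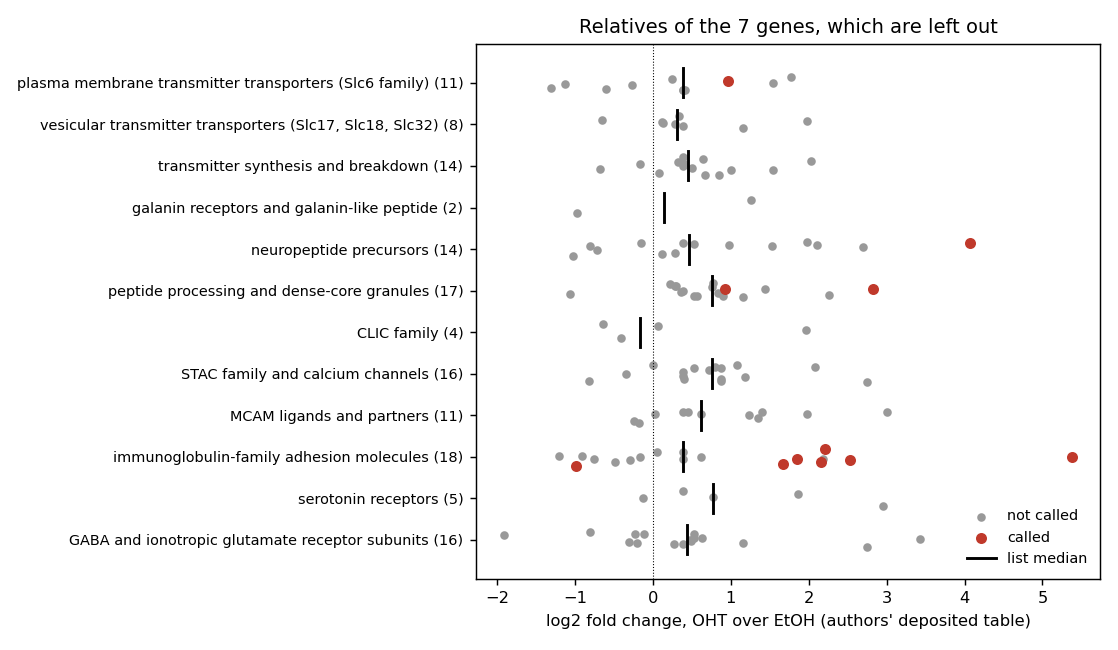
Log2 fold change of OHT over EtOH in the authors' deposited table for measured genes of 12 lists related to the 7 genes, which are left out; red points are called, grey points are not, black bars are list medians, and the number of genes is in brackets. The list of immunoglobulin-family adhesion molecules holds 7 red points, and 8 of the 12 lists hold none.

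Levels were compared between genes per length, as normalised reads per kilobase of the transcript. With OHT the order was Slc32a1 (170.4), Gal (131), Stac2 (91.4), Slc6a4 (64.9), Mcam (33.3), Clic6 (30.5) and Slc17a7 (25.2). Between neighbours in that order, the libraries of Slc32a1 and Gal, of Gal and Stac2, and of Mcam and Clic6 overlapped. With EtOH the order was Slc32a1 (17.1), Slc6a4 (13.3), Slc17a7 (6.03), Gal (3.23), Stac2 (2.95), Clic6 (0.68) and Mcam (0.55). There the libraries of Slc32a1 and Slc6a4, of Gal and Stac2, and of Clic6 and Mcam overlapped. Among 17634 transcripts with a length, the 7 genes lay between percentiles 54.3 and 80.0 of this level with OHT and between 21.7 and 52.4 with EtOH, so with OHT each of them was above the median transcript.

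Few transcripts with the same EtOH level reached the OHT level of the steep risers. Of 1539 transcripts with an EtOH mean within 1.5 times that of Stac2, 0 reached its OHT mean in the authors' deposited table. For Clic6 and Gal, which share an EtOH mean, the counts were 2 and 3 of 1966, and for Mcam 5 of 2297, in the authors' deposited table. Slc32a1 was matched or passed by 9 of 1153 (0.781%). Slc6a4 was matched by 49 of 1209 (4.05%) and Slc17a7 by 106 of 1360 (7.79%), so a rise of their size was less rare among transcripts of their level. Other genes of the 7 were not left out: Clic6 and Gal were counted for Mcam, Clic6 for Gal and Slc32a1 for Slc6a4. These counts describe where the genes stand and do not test them, since the 7 genes were chosen for their rise.

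The nearest transcripts by profile, measured as the Euclidean distance of log2(normalised reads + 1) over the 4 libraries among 8470 transcripts with an OHT mean of at least 50, differed from gene to gene. For Clic6 the nearest was Gal (distance 0.60), followed by Foxl2os (0.81) and Pdlim4 (0.82). For Gal it was Clic6 (0.60), followed by Ltbp2 (0.73) and Pdlim4 (0.77). Mcam lay nearest to Trnp1 (0.995), Foxl2 (1.25) and Gstt1 (1.28), and Stac2 to Igf2bp1 (0.68), Rragd (0.99) and Pgap1 (1.05). Slc17a7 lay nearest to Tubb2b (0.13), Sema7a (0.14) and Ube2l6 (0.30), Slc6a4 to B3gnt3 (0.30), Nrgn (0.50) and Klrg2 (0.56), and Slc32a1 to Camk1d (0.73), Sdc1 (0.74) and Tifa (0.78). The distances of low transcripts rest on few EtOH reads, as for Mcam, Clic6 and Gal, and 4 libraries do not make a profile of function.

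Genes next to the 7 passed no test. Taking the 2 nearest protein-coding genes on each side, by order on GRCm38.p6, 23 of 28 neighbours were measured, and the authors' deposited table called 0 of them (3.94% of symbols were called higher), with 0 at an unadjusted p under 0.05; limma-voom called 0 of the 14 it fitted. The median log2 fold change of the 23 was -0.19. For the 11 neighbours with an EtOH mean of at least 50 it was -0.20, and the highest of these was 0.58, for Cpt1a beside Gal. Named after their values were seen, the adjacent genes of Mcam were Rnf26, with authors' deposited means of 395 with OHT and 506 with EtOH, and Cbl, with 701 and 670. By the same annotation Slc17a7 overlaps a microRNA gene and Slc32a1 and Slc6a4 each overlap a predicted gene, and since the library kit does not mark strand, reads of such pairs cannot be told apart.

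**Figure D4:**
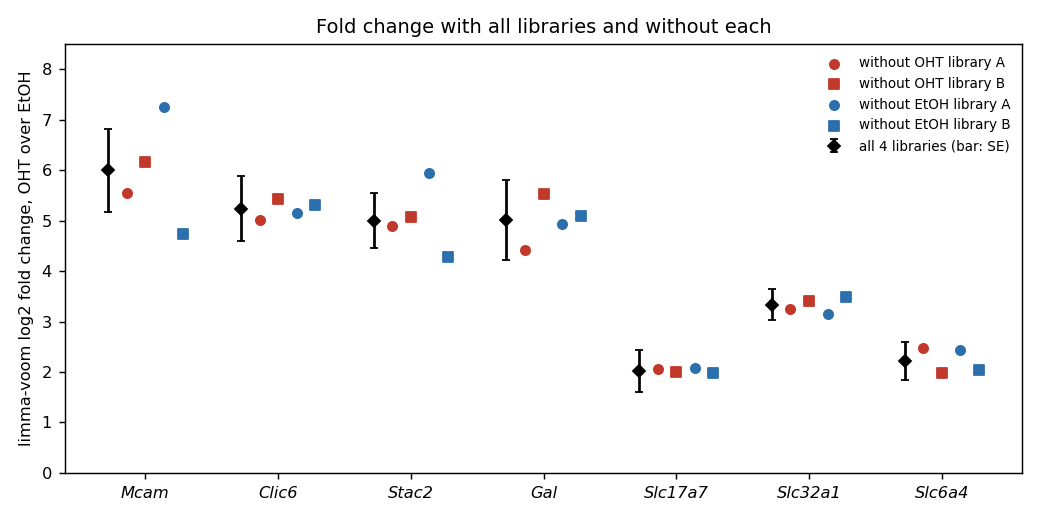
Limma-voom log2 fold change of OHT over EtOH for each gene, with all 4 libraries (black, bar: SE) and without each library in turn (red: an OHT library left out, blue: an EtOH library left out; circles A, squares B). Mcam runs from 4.74 to 7.26 and Stac2 from 4.27 to 5.94, while Slc17a7 stays between 1.99 and 2.07.

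Markers of other cell types were read beside these results for the measured members of each list. Measured were 12 of 21 neuronal, 5 of 10 choroid plexus, 7 of 12 skeletal muscle and 12 of 14 endothelial markers. For pericyte and smooth muscle, epithelial and stromal fibroblast markers these counts were 8 of 12, 15 of 16 and 7 of 12. Map2, Snap25, Col3a1 and Dcn were among those not measured. No measured transcript lacked reads in all 4 libraries, and shares are of the measured members. The 12 measured neuronal markers summed to 907 and 944 normalised reads in the OHT libraries and 833 and 919 in the EtOH libraries, so the ranges of the groups overlapped. Most of each sum came from Nefh and Vamp2. Nefh held 373 and 493 of the OHT sums and 455 and 643 of the EtOH sums. Vamp2 held 454 and 357 of the OHT sums and 330 and 238 of the EtOH sums. A log2 fold change above 0 was seen in 8 of the 12 markers, with a median of 0.34, where 51.6% of all symbols had one. Of them 1 rose (8.33% against 3.94% of symbols), Sv2a of synaptic vesicles (5.04-fold, adjusted p = 0.0399 in the authors' deposited table). Without OHT library A, limma-voom put Sv2a at 2.34 on the log2 scale, against 2.42 with all libraries. Syn1, Nefm and Cplx1 had no EtOH read and 3, 9 and 4 OHT reads, those of Nefm and Cplx1 all in library A. In the opposite direction, Elavl3 and Rab3a had no OHT read and 6 and 1 EtOH reads. The 5 choroid plexus markers stayed low, with summed reads of 9.24 and 21.2 with OHT and 12.4 and 1.30 with EtOH, and the 7 skeletal muscle markers summed to 94.9 and 110.5 with OHT and 163 and 181 with EtOH.

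The summed reads of the vessel, epithelial, stromal and blood lists were each higher in both OHT libraries than in both EtOH libraries. Of single symbols 27% were so placed, while a sum over a list weighs abundant members most. As background, the authors' deposited table called 3.94% of symbols higher, and 51.6% of symbols had a log2 fold change above 0. Limma-voom called 9.72% of its fitted transcripts higher. The 12 measured endothelial markers summed to 768 and 925 normalised reads with OHT and 357 and 238 with EtOH, but 6 of the 12 had a log2 fold change above 0 and their median was -0.22. Most of the sum came from Flt1, a VEGF receptor, with 527 and 505 normalised reads with OHT and 170.0 and 177 with EtOH, and from Vwf, with 208 and 387 with OHT and 143 and 33.9 with EtOH. Flt1 rose 2.96-fold in the authors' deposited table (8.33% of the list), and limma-voom also called Vwf (adjusted p = 0.0443), though not without EtOH library B (adjusted p = 0.122), whereas the defining cadherin Cdh5 had 0 reads with OHT and 3 with EtOH, and Cldn5 and Eng had no OHT read. The 8 pericyte and smooth muscle markers summed to 610 and 1076 with OHT and 243 and 147 with EtOH. Anpep alone held 314 and 823 of the OHT sums and 141 and 22.1 of the EtOH sums. A log2 fold change above 0 was seen in 7 of the 8, with a median of 1.42. Acta2 was called in the authors' deposited table (5.39-fold, 12.5% of the list), and Pdgfrb had 3 reads with OHT and 0 with EtOH. Limma-voom also called Notch3 and Anpep. The limma-voom log2 fold change of Notch3 was 2.41 with all libraries, 1.80 without OHT library B and 2.27 without EtOH library B. The 15 epithelial markers summed to 894 and 1672 with OHT and 322 and 328 with EtOH. All 15 had a log2 fold change above 0, with a median of 1.20, though 3 of them had at most 3 reads in each group. The authors' deposited table called Cdh1 (4.27-fold) and Esrp2 (3.42-fold), 13.3% of the list. Limma-voom called 5 of the 9 it fitted, adding Epcam, Krt18 and Ocln. It did not call Ocln without OHT library B (adjusted p = 0.0781) or EtOH library B (adjusted p = 0.0536), and it did not call Esrp2 without OHT library B (adjusted p = 0.0703) or EtOH library A (adjusted p = 0.0928).

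The 7 measured stromal fibroblast markers summed to 315 and 562 with OHT and 45.6 and 62.5 with EtOH. Thy1 (16.0-fold), Fbln1 (6.08-fold) and Col1a1 (5.69-fold) were called in the authors' deposited table, 42.9% of the list against 3.94% of symbols, and Thy1 alone held 233 and 481 of the OHT sums and 25.7 and 16.9 of the EtOH sums. Col1a2 and Cxcl12 had no OHT read, and limma-voom did not call Col1a1 without OHT library A (adjusted p = 0.0572). The 16 haematopoietic and myeloid markers were all measured and summed to 17736 and 19041 with OHT and 13625 and 14432 with EtOH, so their sum was large in every library and higher with OHT. Csf2rb and Itgb2 held the largest shares. Csf2rb had 4870 and 6328 normalised reads with OHT and 3976 and 3167 with EtOH, and Itgb2 3165 and 3635 with OHT and 2701 and 2637 with EtOH. A log2 fold change above 0 was seen in 12 of the 16 (median 0.33), against 51.6% of symbols. Ptprc, Prtn3, Ctsg and Cebpe had values below 0. Of the 16 markers 1 (6.25%, against 3.94% of symbols), Lyz2, rose (2.41-fold, adjusted p = 0.000505 in the authors' deposited table). Csf1r, the M-CSF receptor, was 6.26-fold higher with an adjusted p of 0.0666 by the authors' deposited table, and limma-voom called it (2.58 ± 0.39 SE, adjusted p = 0.00396), also without each library. The part of these marker lists in the rise of the 7 genes was not tested.

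**Figure D5:**
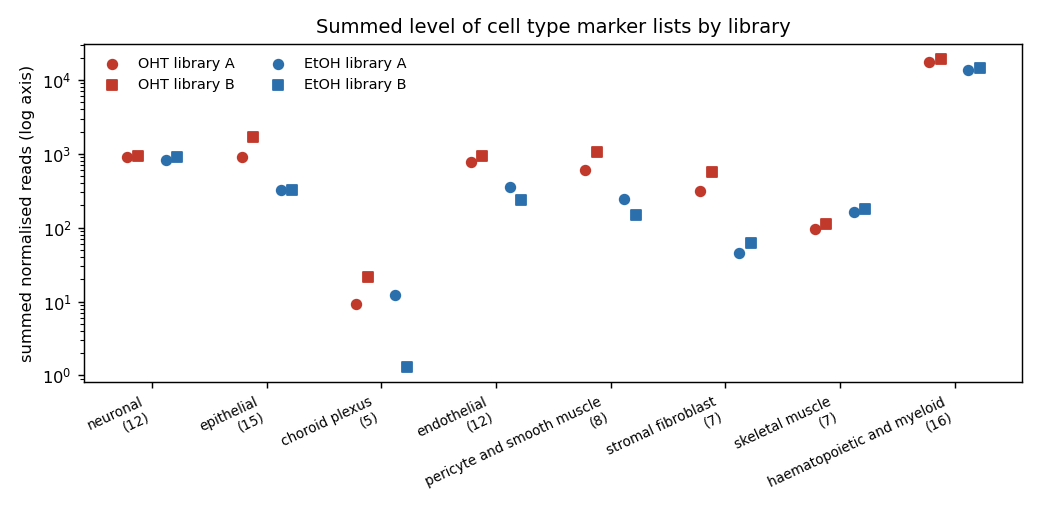
Summed normalised reads of 8 lists of cell type markers in each library (log axis), with the number of measured genes in brackets; red marks OHT and blue EtOH libraries, circles library A and squares library B. Haematopoietic and myeloid markers lie between 13625 and 19041 in the 4 libraries, choroid plexus markers at 21.2 or less, and the haematopoietic, epithelial, endothelial, pericyte and stromal sums are higher in both OHT libraries.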

How the data were processed

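RNA-seq of mouse MLL-AF9 leukaemic cells was compared between OHT (2 samples) and EtOH (2 samples). Per the labels' protocols, RNA extraction used an RNeasy kit and library preparation TruSeq RNA chemistry, version 2. Per the submitters' processing notes TopHat, DESeq and genome build mm9 were used; the counting program is not given in the sources used here. The deposited signal columns are the mean normalised counts of each group, per the file headers base means, made by the authors. The deposited ratio column divides OHT by EtOH means, and a further deposited column gives the log2 of that ratio. Settings of the authors' test, from which the p-value and adjusted p-value columns come, are not stated. The table holds no column of other samples. Columns were mapped to groups by name.

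Each group mean was solved for the pair of whole read counts behind it, each raised by 1 read and divided by a size factor (OHT 1.191 and 0.896, EtOH 1.206 and 0.768); the solution was unique for 100% of transcripts in each group. As a check, means shifted at random by at most 0.1% were solved too: 0.125% of OHT and 0.175% of EtOH means had a solution. On simulated means 99.75% (OHT) and 99.9% (EtOH) were solved. The added read is an inference: every mean was solved with a value of at least 1 in each library. Had none been added, each read count given here would be 1 higher.

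Limma-voom (limma 3.58.1, R 4.3.3) used the solved reads and size factors of 11338 transcripts that had 10 or more reads in 2 libraries, leaving 2 residual degrees of freedom, with Benjamini-Hochberg adjustment. Tested on simulated data (11062 transcripts, this comparison, set dispersion 0.05), it recovered 6% of changes of 1.5 times, 34% of 2 times, 88% of 4 times and 100% of 8 times, and 7.32% of its 123 calls were false. Calls in the text are the authors' adjusted p under 0.05 unless limma-voom is named. Intervals of read ratios and of shares are exact (Clopper-Pearson) at 95% and cover counting error only, since reads without molecular identifiers are not independent molecules; counts of at most 3 reads are taken as the floor. Since separate cultures are not labelled, a p-value reflects the spread of these samples alone, possibly a technical one.

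The 7 genes, the 12 lists of relatives and the 8 marker lists were chosen with earlier results of these data known. Where a symbol has several transcripts, the most abundant one was used. Named genes are the 7, from each list up to 4 called members with the smallest adjusted p or else the 2 with the highest mean, the 3 nearest transcripts by profile, and Rnf2 and Ring1, the targeted genes; others are marked or give counts of the lists. Transcript lengths are those of GENCODE M21 matched by RefSeq accession. Alternatives were total and upper-quartile scaling, other filters, reads summed per symbol and leaving out each library.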

Additional observations from a re-analysis of the deposited data

How the results depend on the processing

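The 7 genes were higher with OHT under every alternative run. Limma-voom medians of 5 lists changed sign in at least 1 alternative: Slc6 transporters, the STAC and calcium channel list and MCAM partners (-0.02) with at least 50 reads in 2 libraries, galanin receptors without EtOH library B, MCAM partners without EtOH library A (-0.04), and GABA and glutamate receptor subunits without OHT library A (-0.35). Limma-voom in place of the authors' test gave 1102 transcripts higher and 623 lower, with a log2 fold change of 5.24 for Clic6. It gave 1 Slc6 transporter lower, 1 synthesis enzyme lower, 2 neuropeptide precursors higher and 1 serotonin receptor higher. Its medians were 2.03 for neuropeptide precursors, 0.26 for the STAC and calcium channel list, 1.76 for adhesion molecules and 2.84 for serotonin receptors. With total scaling Slc17a7 stood at 2.08, 0 synthesis enzymes were lower and 1 CLIC gene was higher. With upper quartile scaling Slc17a7 stood at 2.11, 0 synthesis enzymes were lower, and 1 synthesis enzyme, 1 CLIC gene and 1 MCAM partner were higher. With reads summed per symbol 0 synthesis enzymes were lower and 1 CLIC gene was higher.

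Without a filter, called higher were 2 Slc6 transporters, 1 vesicular transporter, 1 synthesis enzyme, 4 neuropeptide precursors, 1 CLIC gene, 1 STAC or calcium channel gene, 2 MCAM partners, 2 serotonin receptors and 2 GABA or glutamate receptor subunits. Called lower were 0 synthesis enzymes, 1 CLIC gene, 1 STAC or calcium channel gene and 2 adhesion molecules. The medians were then 0.65 for neuropeptide precursors, 0.90 for the STAC list, 0.74 for MCAM partners, 0.71 for adhesion molecules and 1.09 for serotonin receptors. With at least 50 reads in 2 libraries, 1 neuropeptide precursor and 0 serotonin receptors were higher, and the medians were -0.56 for Slc6 transporters and -0.30 for the STAC list. Filters change which genes are tested; the cause of the other shifts was not tested.

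Leaving out each library gave log2 fold changes of 4.74 to 7.26 for Mcam, 5.02 to 5.43 for Clic6, 4.27 to 5.94 for Stac2, 4.42 to 5.54 for Gal and 3.14 to 3.48 for Slc32a1. Transcripts called lower ranged from 133 to 1075. Calls higher ranged from 0 to 1 for vesicular transporters, galanin receptors, CLIC genes and MCAM partners, from 0 to 2 for synthesis enzymes and serotonin receptors, and from 1 to 2 for peptide processing. Calls lower ranged from 0 to 1 for Slc6 transporters, synthesis enzymes and MCAM partners and from 1 to 2 for adhesion molecules. Medians ranged from -0.39 to 1.19 for galanin receptors and from 1.57 to 4.46 for serotonin receptors. No paired analysis was possible because the deposited columns are group means and the solved libraries carry no replicate number. The folds of Mcam, Clic6 and Gal rest on 4 or 5 EtOH reads, which widens their counting intervals.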

Other observations

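A few relatives of the 7 genes were called by limma-voom on the solved reads and not in the authors' deposited table. Penk, the precursor of enkephalins, had 528 and 963 normalised reads in the OHT libraries against 208 and 137 in the EtOH libraries (limma-voom log2 fold change 2.03 ± 0.35 SE, adjusted p = 0.00592; authors' deposited adjusted p = 0.104), and it was called without each of the 4 libraries. Slc6a9, a glycine transporter, fell to 388 and 765 normalised reads with OHT, against 1472 and 1059 with EtOH (limma-voom log2 fold change -1.22 ± 0.31 SE, adjusted p = 0.0276), and it was not called without OHT library A (adjusted p = 0.256) or EtOH library A (adjusted p = 0.0518). Jam2, a junctional adhesion molecule, had 32 reads with OHT and 6 with EtOH, and its limma-voom call (adjusted p = 0.0472) was lost without OHT library A (adjusted p = 0.182), OHT library B (adjusted p = 0.0753) or EtOH library B (adjusted p = 0.169).

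Npy, the precursor of neuropeptide Y, had 57.1 and 175 normalised reads with OHT against 31.5 and 2.60 with EtOH, and passed neither test (authors' deposited adjusted p = 0.543, limma-voom adjusted p = 0.0531). Its libraries differed within both groups.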
